A study of Mus musculus with 4 samples.

Results

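The 9 genes described here encode enzymes and chromatin proteins that write, remove or read out epigenetic marks in blood stem cells, and they were taken by name: the DNA methyltransferases Dnmt1, Dnmt3a and Dnmt3b, the TET enzymes Tet2 and Tet3, and the chromatin regulators Asxl1, Ezh2, Bmi1 and Kmt2a. All 9 were among the 12390 genes of the deposited table, and all 9 were among the 11742 genes tested. DNA methyltransferases add methyl groups to cytosine, with Dnmt1 copying the pattern after replication and Dnmt3a and Dnmt3b setting new marks. TET enzymes oxidise methylcytosine, a step toward its removal. Ezh2 and Bmi1 belong to the Polycomb complexes PRC2 and PRC1, which silence genes, Asxl1 is the partner of the deubiquitinase Bap1, which acts against a PRC1 mark, and Kmt2a, also called MLL, methylates histone H3 at active genes such as the Hoxa cluster. In hematopoiesis, Dnmt3a, Tet2 and Asxl1 are known as genes mutated in clonal expansion of stem cells, and Bmi1 and Kmt2a as genes required for stem cell self-renewal.

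The RNA came from hematopoietic stem cells of mice, sorted as cells that lack lineage markers and CD48 and carry Sca-1, c-Kit and CD150. About 5000 cells went into each library, and a Smart-Seq kit for low input was used. The 2 control libraries are labelled WT and come from mice with the floxed allele alone, which the design text spells Ddx211fl/fl, while the 2 knockout libraries come from mice with the same floxed allele and CAG-CreERT2, a tamoxifen-dependent Cre driven by a promoter active in most tissues, so that recombination is not limited to blood cells. No group had Cre without the floxed allele. The labels are silent on age, sex, tamoxifen dosing and timing, on whether control mice received tamoxifen and on whether each library is 1 animal. The p-values therefore measure only how far these samples spread, and that spread may be technical. In limma on RPKM the spread used is a trend with level over all tested genes, not that of each gene. Ddx21, an RNA helicase of the nucleolus and the targeted gene, measured 10.95 and 12.1 RPKM in control and 6.20 and 6.60 RPKM in knockout. It was lower in both knockout libraries but did not pass the test (log2 fold change -0.76, SE 0.30, limma adjusted p = 0.158), while voom on the recovered reads put it past the threshold (-1.21, adjusted p = 0.0311).

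Values are RPKM, reads scaled to transcript length and to the reads of the library, and a log2 fold change is the difference, knockout minus control, of the mean log2(RPKM + 1). Reads recovered from the values summed to between 43218009 and 62871439 per library. The libraries were not on a common scale: against the control mean, the median tested gene was higher by 0.12 in knockout replicate 1 and by 0.50 in knockout replicate 2, and the median log2 fold change was 0.31. Changes are therefore also given after rescaling of the libraries by a trimmed mean of ratios (TMM-type), which brought the median to 0.01. Transcripts of the sort markers Kit, Ly6a and Slamf1 were present in all 4 libraries, as was Cd48, whose protein the gate excludes, between 20.7 and 32.4 RPKM. Markers of neutrophils, monocytes and their progenitors were abundant. The 10 genes of that list summed to 68932 and 71457 RPKM in control and 48699 and 31358 RPKM in knockout, and all 10 fell. The 9 listed markers of stroma and bone summed to 355 and 215 RPKM in control and 4878 and 1329 RPKM in knockout, and 7 of them rose. Megakaryocyte markers, some of which stem cells also express, summed to 373 and 334 RPKM in control and 478 and 766 RPKM in knockout, and 3 of the 4 listed rose. Rose and fell here mean called by limma on RPKM before rescaling, at an adjusted p under 0.05. That held for 3.33% of tested genes in the higher and 0.86% in the lower direction. After rescaling limma called 1 tested gene higher, which is none of these markers, and 0 lower. In RPKM, RNA of other cell types thus moved with the groups, and its part in the values of the 9 genes was not tested. In such bulk samples, fewer cells of a type and less RNA per cell cannot be told apart.

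None of the 9 genes passed the threshold (Benjamini-Hochberg adjusted p under 0.05 in limma over all 11742 tested genes), against 4.19% of all tested genes (higher 3.33%, lower 0.86%). Without adjustment of p the 9 genes again gave 0 under 0.05, beside 13.8% of tested genes higher and 2.45% lower. After rescaling limma again called 0 of the 9, against 0.00852% of tested genes, and voom on the recovered reads called 0, against 0.622%, of which 0.434% were higher and 0.187% lower. In both of these, 1 of the 9, Kmt2a, had an unadjusted p under 0.05, in the higher direction, as did 8.34% and 9.5% of tested genes, with 7.5% and 7.6% in the lower direction. In RPKM, the 2 knockout libraries lay above both control libraries for 6 of the 9 genes, beside 55.5% of tested genes, and below them for 0, beside 7.38% (62.9% of tested genes in either direction). After rescaling the knockout libraries lay above for 3 genes (Dnmt3a, Bmi1 and Kmt2a), beside 28.4% of tested genes, and below for 2 (Dnmt1 and Ezh2), beside 26.1% (54.5% in either direction). With groups of 2, an exact permutation test of a single value cannot give a two-sided p below 0.333.

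The levels fell into 3 tiers. Dnmt1 and Ezh2 led, with means over the 4 libraries of 34.1 and 32.7 RPKM, and their ranges overlapped. Dnmt3b followed at 12.7 RPKM, apart from its neighbours above and below. The other 6 lay between 1.90 RPKM for Bmi1 and 3.62 RPKM for Dnmt3a, with each range overlapping the next. By mean the order was Dnmt3a, Asxl1, Tet2, Kmt2a, Tet3 and Bmi1. Each neighbouring pair changed order between libraries, so the order of neighbours is not settled by these libraries. Pairs further apart, such as Dnmt3a and Tet2 or Kmt2a and Bmi1, kept their order in every library. Dnmt1 lay above 85.3% of all listed genes and Bmi1 above 21.03%. The estimates rest on between 278 and 451 reads per library for Bmi1, the fewest, and between 7167 and 14179 for Dnmt1, the most.

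**Figure D1:**
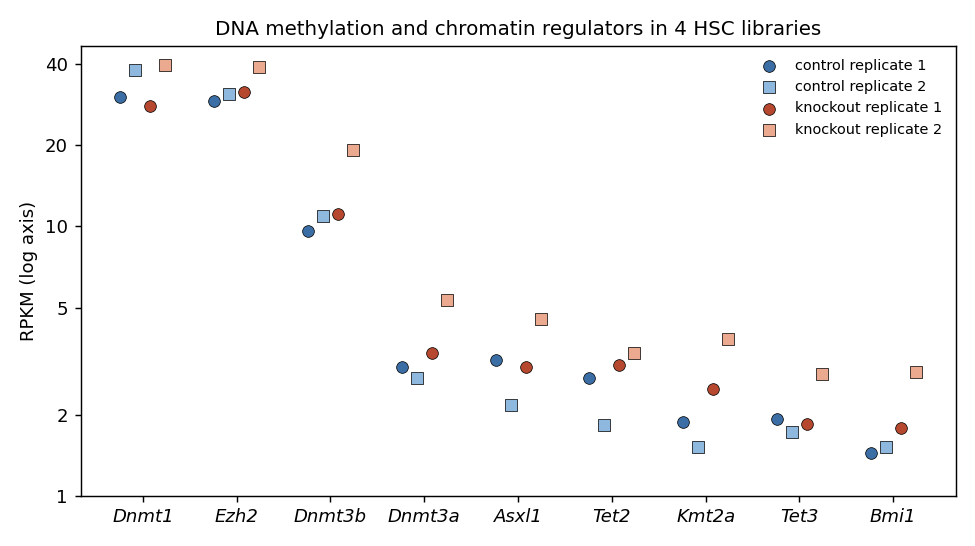
RPKM on a log axis for the 9 genes, ordered by mean level, with 1 point per library (blue, control; red, knockout; circles, replicate 1; squares, replicate 2). Dnmt1 and Ezh2 lie near 30 to 40 RPKM, Dnmt3b between 9.64 and 19.2 RPKM and the other 6 below 6 RPKM, and knockout replicate 2 is the highest library for all 9 genes.

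The start regions were read from RefSeq (GRCm38.p6, the assembly behind mm10), which gives 1 window of 300 bases per start site, 250 before and 50 from the start. All 9 genes had a window, 13 in all. CpG dinucleotides numbered between 2 and 57 per window against a median of 7 over 32851 windows, and 12 of the 13 were above that median, the exception being 1 of 3 windows of Dnmt1. Tet2 had the most. A binding motif of E2F, the factor family that drives genes of DNA replication, was searched on both strands in 4 spellings, TTTGGCGC, TTTCCCGC, TTTGCCGC and TTTCGCGC. It was present in windows of 2 of the 9 genes, Dnmt1 and Ezh2, the pair with the highest levels, and the 3 matches did not overlap. TTTGGCGC is in 0.514% of all windows, and in 1.02% of the 3837 windows with at least 30 CpG. Any of the 4 spellings is in 2.26% and 5.06%. These shares are per window, while the counts of the 9 genes and of the lists are per gene. A gene with several windows, such as Dnmt1, has more places for a match. Of 18 proliferation genes with a window 5 held a spelling, namely Cdk1, Mcm3, Mcm5, Mcm6 and Mcm7. So did 3 of 12 genes listed as writers and cofactors of DNA methylation and 2 of 10 genes of the PRC2 list. It was 0 of 11 genes of oxidation and removal, 0 of 5 of the reader list and 0 of 17 PRC1 genes. It was also 0 of 7 ASXL and BAP1 partners, 0 of 17 MLL genes, 0 of 7 genes of the Kmt2a list and 0 of 3 repressed genes. The windows of Dnmt1 and Ezh2 are printed because they hold the motif, and that of Kmt2a, the gene with the highest fold change, because it holds none. Each is on the strand of its gene, and capitals mark a match to the motif, GCGCGAAA being TTTCGCGC on the opposite strand.
Dnmt1, chr9:20952574-20952873, minus strand: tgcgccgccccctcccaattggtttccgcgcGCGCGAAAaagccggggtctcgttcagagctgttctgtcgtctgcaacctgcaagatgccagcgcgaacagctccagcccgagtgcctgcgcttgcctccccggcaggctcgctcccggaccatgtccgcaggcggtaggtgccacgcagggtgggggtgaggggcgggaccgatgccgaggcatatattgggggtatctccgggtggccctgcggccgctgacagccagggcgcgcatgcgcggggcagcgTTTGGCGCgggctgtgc
Ezh2, chr6:47594981-47595280, minus strand: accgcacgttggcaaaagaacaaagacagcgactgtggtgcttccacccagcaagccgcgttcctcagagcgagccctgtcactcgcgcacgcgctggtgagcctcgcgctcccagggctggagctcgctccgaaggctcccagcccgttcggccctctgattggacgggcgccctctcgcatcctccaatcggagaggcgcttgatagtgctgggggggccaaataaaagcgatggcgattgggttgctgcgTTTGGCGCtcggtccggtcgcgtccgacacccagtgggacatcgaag
Kmt2a, chr9:44881240-44881539, minus strand: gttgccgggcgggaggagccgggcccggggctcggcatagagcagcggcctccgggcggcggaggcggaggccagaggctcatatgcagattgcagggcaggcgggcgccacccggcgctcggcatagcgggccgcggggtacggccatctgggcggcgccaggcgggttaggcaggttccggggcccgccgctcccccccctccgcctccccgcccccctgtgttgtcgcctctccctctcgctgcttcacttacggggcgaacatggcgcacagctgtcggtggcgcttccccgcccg
In the window of Ezh2 the match covers bases 254 to 261, and in that of Dnmt1 the matches cover bases 32 to 39 and 284 to 291, counted from 1 at the left end. A match is a run of letters, and binding was not measured.

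Dnmt1, the maintenance methyltransferase (ENSMUSG00000004099, chromosome 9, 20907209 to 20959888, minus strand, mm10), measured 30.3 and 38.2 RPKM in control and 28.0 and 39.7 RPKM in knockout. The groups overlapped, and each held 1 low and 1 high library. The means were 34.3 ± 5.61 RPKM in control and 33.9 ± 8.23 RPKM in knockout (SD, n = 2 each), with a log2 fold change of -0.03 (SE 0.21, limma adjusted p = 0.931). This was 0.34 below the median of all tested genes, and 15.2% of tested genes had a lower value. After rescaling the 4 values were 33.6, 44.2, 28.7 and 30.3 RPKM in the same order, both knockout libraries lay below both control libraries, and the log2 fold change was -0.37 (95% interval -0.78 to 0.03, limma adjusted p = 0.336).

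Dnmt3b, a de novo methyltransferase (chromosome 2, 153649450 to 153687730, plus strand), stood at 9.64 and 10.96 RPKM in control and at 11.2 and 19.2 RPKM in knockout. The knockout libraries lay above the control libraries, replicate 1 by little and replicate 2 clearly. Its log2 fold change of 0.48 (SE 0.27, limma adjusted p = 0.352) became 0.14 after rescaling (95% interval -0.25 to 0.54), with overlapping groups. Dnmt3a, the other de novo enzyme (chromosome 12, 3806007 to 3914443, plus strand), stood at 3.02 and 2.73 RPKM in control and at 3.40 and 5.32 RPKM in knockout. Both knockout libraries were higher than both control libraries here, also after rescaling. Its log2 fold change was 0.44 (SE 0.34, limma adjusted p = 0.441), and 0.16 after rescaling (95% interval -0.15 to 0.48).

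Shares within the methyltransferase family do not depend on a factor per library. Of the summed RPKM of the 3 enzymes, Dnmt1 held 70.5% and 73.6% in control and 65.8% and 61.8% in knockout. Dnmt3b held 22.4% and 21.1% in control and 26.2% and 29.9% in knockout. Dnmt3a, at 7.03% and 5.27% in control, held 7.97% and 8.29% in knockout. Dnmt1 had the lower share and both de novo enzymes the higher share in each knockout library, where the groups of 54.5% of all tested genes did not overlap after rescaling. The 3 shares sum to a whole and are not independent of each other. They also follow the levels of the genes: after rescaling, tested genes had a median log2 change of -0.14 in the level range of Dnmt1, 0.03 in that of Dnmt3b and 0.10 in that of Dnmt3a. A factor per library does not remove this trend, and its part in the shares was not tested.

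Tet2, which in mice restrains stem cell expansion (chromosome 3, 133463679 to 133545139, minus strand), stood at 2.74 and 1.82 RPKM in control and at 3.07 and 3.38 RPKM in knockout. The knockout libraries lay close together and above both control libraries, of which replicate 2 was the low one. Its log2 fold change was 0.38 (SE 0.33, limma adjusted p = 0.482), and 0.12 after rescaling (95% interval -0.31 to 0.55), where the groups overlapped. Tet3 (chromosome 6, 83362373 to 83459084, minus strand) stood at 1.93 and 1.72 RPKM in control and at 1.85 and 2.84 RPKM in knockout. Knockout replicate 1 fell between the control libraries and replicate 2 stood above them. Its log2 fold change of 0.23 (SE 0.31, limma adjusted p = 0.626) was 0.08 below the median of all tested genes and turned to -0.02 after rescaling (95% interval -0.35 to 0.31). Tet1, the third enzyme of the family, was lower still, at 0.943 and 0.721 RPKM in control and 1.16 and 1.95 RPKM in knockout (log2 fold change 0.47, limma adjusted p = 0.358). Since the lowest maximum in the table is 1.0063 RPKM, Tet1 is listed only through its knockout libraries, and its direction follows from that. Of the summed RPKM of the 3 TET genes, Tet2 held 48.8% and 42.8% in control and 50.5% and 41.4% in knockout, and Tet3 held 34.4% and 40.3% in control and 30.4% and 34.7% in knockout. Both shares overlapped between groups.

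Ezh2, the methyltransferase of PRC2 (chromosome 6, 47530139 to 47595341, minus strand), stood at 29.2 and 31.1 RPKM in control and at 31.6 and 39.1 RPKM in knockout. In RPKM both knockout libraries were above both control libraries, and after rescaling both were below them, at 32.3 and 29.8 RPKM against 32.4 and 35.9 RPKM. The log2 fold change changed sign with it, from 0.22 (SE 0.21, limma adjusted p = 0.522) to -0.13 (95% interval -0.45 to 0.19). Its paralog Ezh1, which can replace it in PRC2 and is typical of resting cells, stood at 3.81 and 3.75 RPKM in control and at 5.25 and 7.22 RPKM in knockout, with a log2 fold change of 0.58 (SE 0.33, limma adjusted p = 0.355) and of 0.29 after rescaling. Of the summed RPKM of both paralogs, Ezh1 held 11.5% and 10.8% in control and 14.2% and 15.6% in knockout, the higher share in each knockout library. Ezh1 is in the level range from 5 to 20 RPKM and Ezh2 in that from 20 to 100 RPKM, where the rescaled medians of all tested genes were 0.03 and -0.14. The part of that trend in the share was not tested.

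Bmi1, a PRC1 subunit (chromosome 2, 18677018 to 18686629, plus strand), stood at 1.44 and 1.51 RPKM in control and at 1.78 and 2.88 RPKM in knockout. The control libraries agreed closely, and both knockout libraries were higher, also after rescaling. Its log2 fold change was 0.41 (SE 0.30, limma adjusted p = 0.434), and 0.17 after rescaling (95% interval -0.18 to 0.52). Its paralog Pcgf2 did not share this order, with 1.62 and 1.53 RPKM in control and 1.62 and 1.61 RPKM in knockout (log2 fold change 0.02, limma adjusted p = 0.962, and -0.19 after rescaling). Asxl1 (chromosome 2, 153345829 to 153404007, plus strand) stood at 3.19 and 2.17 RPKM in control and at 3.01 and 4.55 RPKM in knockout. The groups overlapped, since control replicate 1 exceeded knockout replicate 1. Its log2 fold change was 0.37 (SE 0.33, limma adjusted p = 0.492), and 0.10 after rescaling (95% interval -0.30 to 0.50). The paralog Asxl2 had a log2 fold change of 0.51 (limma adjusted p = 0.403), and 0.24 after rescaling.

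Kmt2a (chromosome 9, 44803355 to 44881296, minus strand) had the highest fold change of the 9 genes. It stood at 1.87 and 1.52 RPKM in control and at 2.48 and 3.83 RPKM in knockout, or at 2.08, 1.76, 2.54 and 2.92 RPKM after rescaling. Both knockout libraries were above both control libraries on either scale. The means were 1.70 ± 0.250 RPKM in control and 3.16 ± 0.950 RPKM in knockout (SD, n = 2 each), with a log2 fold change of 0.61 (SE 0.32, limma adjusted p = 0.319). It lay 0.30 above the median of all tested genes, and 89.4% of tested genes had a lower value. After rescaling the log2 fold change was 0.36 (95% interval 0.02 to 0.70, limma unadjusted p = 0.0427, adjusted p = 0.304), and in voom it was 0.52 (unadjusted p = 0.00597, adjusted p = 0.139). Over 13 other settings of filter, pseudocount, scaling, model and libraries, the adjusted p of Kmt2a ranged from 0.0178 to 0.957.

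The count of 0 called genes depended on 1 library. Without knockout replicate 1, limma called 5 of the 9 higher, namely Dnmt3a, Dnmt3b, Ezh2, Bmi1 and Kmt2a, with adjusted p-values from 0.0155 for Dnmt3b to 0.0493 for Ezh2. In that setting 54.3% of all tested genes were called higher and 4.48% lower, 58.8% together. With rescaling and without the same library, 0 of the 9 were called and Ezh2 stood at -0.19.

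**Figure D2:**
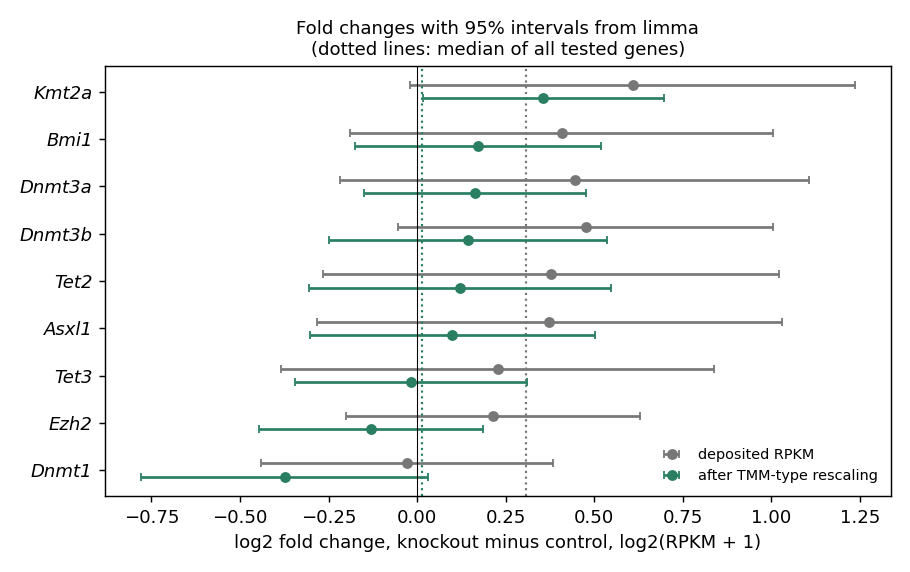
Log2 fold change of each gene (x axis, knockout minus control) with its 95% interval from limma, on deposited RPKM (grey) and after TMM-type rescaling (green); dotted lines mark the medians of all tested genes, 0.31 and 0.01. Dnmt1 lies at the lower end and Kmt2a at the upper end on both scales, and the rescaled interval of Kmt2a, from 0.02 to 0.70, is the one green interval that does not reach 0.

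Fold changes of all tested genes varied with their level. After rescaling, the median log2 fold change was 0.10 for the 5082 genes with a mean from 1 to 5 RPKM, 0.03 for the 3825 from 5 to 20 RPKM, -0.14 for the 2160 from 20 to 100 RPKM and -0.45 for the 675 above. Beside genes of its own level, Ezh2 was in the middle, above 52.2% of them. Dnmt1 was above 17.3% and Kmt2a above 86.5% of the genes in their level ranges, while Tet3 was above 30.6%, Asxl1 50.5%, Tet2 54.4%, Dnmt3a 61.98%, Bmi1 63.0% and Dnmt3b 71.6%. The order of Dnmt1 and Kmt2a at the lower and upper ends was thus kept beside genes of like level, and that of Ezh2 was not.

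**Figure D3:**
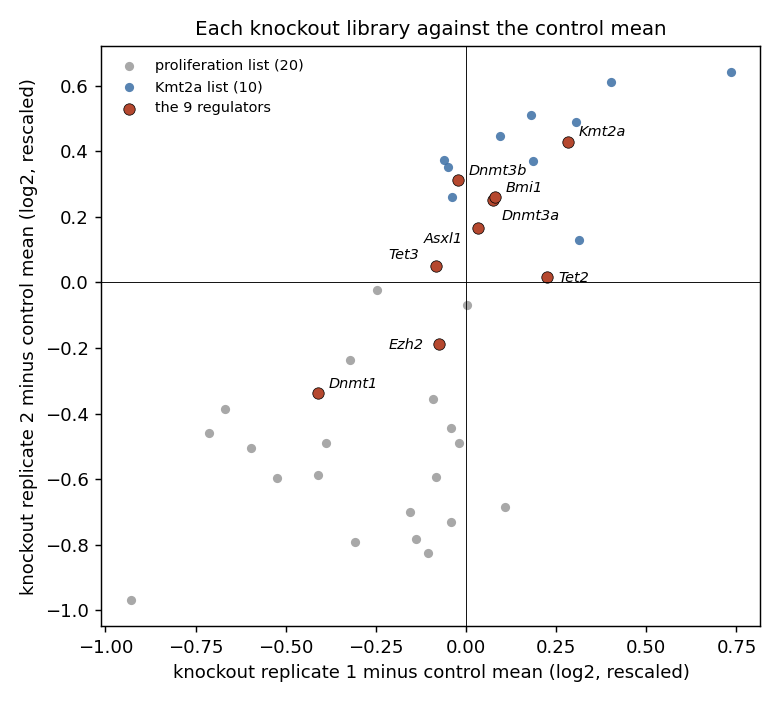
Difference of knockout replicate 1 (x axis) and knockout replicate 2 (y axis) from the control mean, in log2(RPKM + 1) after rescaling, for the 9 genes (red, named), the 20 genes of the proliferation list (grey) and 10 genes known to be bound or controlled by Kmt2a (blue). Kmt2a is above 0 in both libraries at 0.28 and 0.43, among the blue points. Of the 10 blue genes 3 are listed only through a knockout library, and their direction follows from that. Dnmt1 is below 0 in both libraries at -0.41 and -0.34, among the grey points.

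The other genes of each pathway were then counted by list. Of 11 tested genes listed as writers and cofactors of DNA methylation 0 were called. Their median log2 fold change was 0.12 in RPKM and -0.23 after rescaling. The list holds 4 genes from 20 to 100 RPKM and 3 above. Against the medians of their own level ranges, the rescaled median difference was -0.02, with 5 genes above and 6 below. Smallest in p were the methyltransferase homolog Trdmt1 (0.43, limma adjusted p = 0.452) and Uhrf2 (0.42, limma adjusted p = 0.427). After rescaling Trdmt1 stood at 0.15 and Uhrf2 at 0.10. Dnmt3l, the cofactor of the de novo enzymes, was not analysed here. Of 14 genes of methylcytosine oxidation and removal 0 were called, with a median of 0.17 and -0.13 after rescaling, and values from -0.17 for Idh1, whose product is the cosubstrate of TET enzymes, to 0.95 for Gadd45g (limma adjusted p = 0.0900). Cxxc5, a zinc finger protein that binds unmethylated CpG, stood at 0.84 (limma adjusted p = 0.1002). With rescaling Idh1 stood at -0.51, Gadd45g at 0.67 and Cxxc5 at 0.52. Against the medians of their own level ranges, these 14 genes had a rescaled median difference of -0.08, with 6 above and 8 below. The 8 tested genes of the methyl-CpG reader list had 0 called and a median of 0.40, or 0.11 after rescaling. Not all of them, Mbd3, Mbd5 and Mbd6 for example, encode selective binders of methylated CpG. Mbd4, a glycosylase that repairs mismatches at CpG, stood at 0.55 (limma adjusted p = 0.365), and 0.25 after rescaling. Of these 8 genes 2, Mbd5 among them, are likewise listed only through a knockout library.

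Partners of the chromatin regulators also had 0 called. Of the 10 tested genes of the PRC2 list, 4 lay above the median of all tested genes and 6 below. The list also holds Kdm6a, a demethylase that acts against the PRC2 mark. The core subunit Eed stood at 0.46 (limma adjusted p = 0.307), and 0.12 after rescaling. The histone-binding subunit Rbbp7 stood at -0.09, and -0.44 after rescaling. Its level was above 100 RPKM, where the medians of all tested genes were -0.09 in RPKM and -0.45 after rescaling. Of 21 other PRC1 genes 11 lay above and 10 below. Phc1 (0.76) and Pcgf1 (0.73) had the smallest p-values, with limma adjusted p of 0.219 and 0.211. After rescaling Phc1 stood at 0.50 and Pcgf1 at 0.42. Bap1, the partner of Asxl1, stood at 0.42 (limma adjusted p = 0.358), and 0.08 after rescaling. Ogt, a glycosyltransferase found in the same complex, stood at 0.56 (limma adjusted p = 0.166), and 0.22 after rescaling. The 8 tested genes of that list had a median of 0.37, and 0.06 after rescaling. Of 21 genes of MLL complexes and partners 14 lay above the median of all tested genes and 7 below. Against the median of their own level range 10 lay above and 11 below on both scales. Kmt2c, a related methyltransferase, stood at 0.50 and the acetyltransferase Kat8 at 0.44 (limma adjusted p = 0.404 and 0.356). After rescaling these 2 stood at 0.23 and 0.11. Kmt2b, the closest paralog of Kmt2a, was not analysed here.

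Of 13 genes known to be bound or controlled by Kmt2a 10 were tested, with 0 called in any of limma on RPKM, limma after rescaling and voom. Their median log2 fold change was 0.55, against 0.31 for all tested genes, and 0.27 after rescaling, against 0.01. All 10 were above the median of all tested genes on both scales. Hoxa5, Hoxa10, Meis1 and Mecom had an unadjusted p under 0.05 in RPKM, beside 13.8% of all tested genes in the higher direction, and the same without Meis1 after rescaling, beside 8.34%. Hoxa5, Pbx3 and Zfp521, 3 of the 10, were below 1.0063 RPKM in both control libraries and are listed only through a knockout library. Their direction follows from how the table was made. The count, the list medians and the unadjusted p of Hoxa5 are therefore no support for a shared direction. The homeobox gene Hoxa10 stood at 1.77 and 2.10 RPKM in control and at 4.199 and 5.20 RPKM in knockout, with a log2 fold change of 0.95 (SE 0.33, limma adjusted p = 0.0860) and of 0.69 after rescaling. Meis1, a cofactor of Hoxa9, stood at 11.8 and 13.6 RPKM in control and at 16.04 and 27.4 RPKM in knockout, with 0.68 (SE 0.25, limma adjusted p = 0.109) and 0.35 after rescaling. Both genes were higher in each knockout library than in each control library. The same list shares Mecom with the stem cell markers. Of the 8 listed sort gate and stem cell markers limma on RPKM called 2 higher, Procr among them, beside 3.33% of tested genes. The summed level of the 8, not rescaled, was 195 and 241 RPKM in control and 290 and 369 RPKM in knockout. Rescaling divides these libraries by 0.90, 0.87, 0.98 and 1.31 in the same order. After rescaling limma called 1 tested gene higher, Cdkn1a, which is none of these markers. The part of these markers in the values of the Kmt2a list was not tested.

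Of 9 genes known to be repressed by Bmi1 or Ezh2, 3 were tested, and 1 rose, the cell cycle inhibitor gene Cdkn1a. It went from 2.61 and 2.10 RPKM in control to 31.5 and 64.3 RPKM in knockout (log2 fold change 3.78, SE 0.28, limma adjusted p = 2.46e-39, and 0.0461 after rescaling). The first of these p-values uses an SD of 0.28 from the trend, where the gene's own SD in log2 was 0.52. Cdkn1a is best known as a target of p53. Cdkn2c, another inhibitor, stood at 0.19 (limma adjusted p = 0.696), and -0.12 after rescaling. The differentiation gene Id2 stood at -0.19 (limma adjusted p = 0.668), and -0.51 after rescaling. Cdkn2a, the classical target of Bmi1, was not analysed here.

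Dnmt1 is more abundant in dividing cells, and a list of proliferation genes was set beside it. Of the 20 genes of the proliferation list 1 fell, the ubiquitin-conjugating enzyme gene Ube2c (log2 fold change -0.59, SE 0.17, limma adjusted p = 0.0170), and 19 were not called. The list median was -0.08, and -0.43 after rescaling, and all 20 lay below the median of all tested genes on both scales. The list is one of high levels, with 9 genes from 20 to 100 RPKM and 9 above, where the rescaled medians of all tested genes were -0.14 and -0.45. Against the median of its own level range, 15 of the 20 lay below and 5 above on both scales, with a median difference of -0.10. After rescaling Ube2c stood at -0.95 (SE 0.18) and was not called (limma adjusted p = 0.132). The part of proliferation, or of level, in the value of Dnmt1 was not tested.

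**Figure D4:**
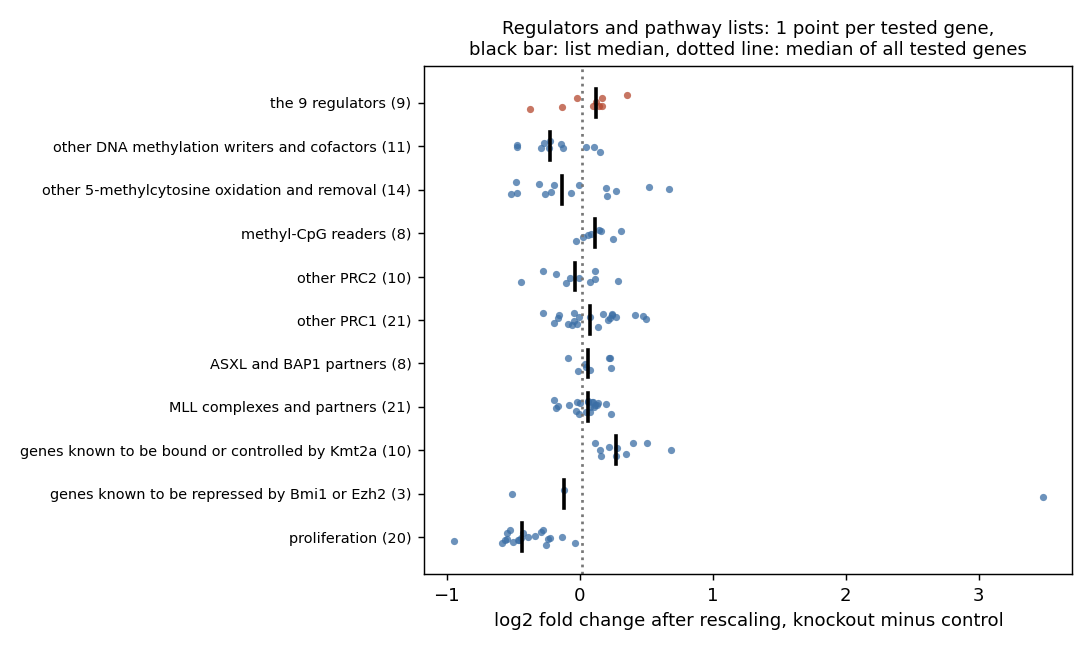
Log2 fold change after rescaling (x axis) of every tested gene in the 9 regulators (red) and in each pathway list (blue, number of tested genes in brackets), with the list median as a black bar and the median of all tested genes as a dotted line. The Kmt2a list has a median of 0.27, with 3 of its 10 genes listed only through a knockout library, the proliferation list, of mostly high levels, has a median of -0.43, and Cdkn1a is the point at 3.48.

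The gene nearest to each of the 9 in its pattern over the 4 libraries was sought among the other regulators and the pathway lists, 133 candidates, by the Euclidean distance of mean-centred log2(RPKM + 1). With 4 libraries such nearness is a description only. On both scales the nearest gene to Dnmt1 was Rbbp4 (distance 0.16, median over candidates 0.47 in RPKM), to Ezh2 Hells (0.06, median 0.29), to Dnmt3b Mbd6, to Tet2 Aff1 and to Asxl1 Mbd2. Hells encodes a chromatin remodeller needed for DNA methylation, and Rbbp4 a histone-binding subunit shared by PRC2 and other complexes. For Kmt2a the nearest was Phc3 in RPKM and Tet1 after rescaling, for Dnmt3a Foxk1 and then Mbd5, for Bmi1 Uhrf2 and then Phc2, and for Tet3 Pcgf5 and then Bcorl1.

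Antisense or same-strand genes overlap 8 of the 9 loci in GENCODE M21, with Bmi1 the exception, and 2 of those neighbours have values in the table, Mir6374 within Tet3 and 2500004C02Rik opposite the start of Asxl1. The sources used here do not say whether counting used strand, so reads of such partners cannot be told apart from those of Asxl1 and the others. Isoforms cannot be told apart in a value per gene, and Dnmt1 and Dnmt3a each have 3 RefSeq start windows.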

How the data were processed

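RNA was measured in 4 libraries, 2 control and 2 knockout, grouped by their titles in the labels. The deposited table holds 1 RPKM value per gene and library, a unit identified from the values: RPKM times the longest GENCODE M21 transcript was a whole number of reads, within 0.1, for 99.3% of values under 2000 reads in each library. Per the submitters' processing notes, reads were placed on mm10. Aligner, counter and the treatment of reads with several hits: not given in the sources used here. A gene without reads is deposited as 0.001 RPKM and the lowest maximum over libraries is 1.0063 RPKM, so the table holds no gene under that maximum, and other genes were not analysed here. Symbols and positions came from GENCODE M21.

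The test was limma 3.58.1 (R 4.3.3) on log2(RPKM + 1) with the trend option, for the 11742 genes whose mean reached 1 RPKM. Genotype was the only term (2 residual degrees of freedom). Adjusted p-values (Benjamini-Hochberg) under 0.05 were called. The prior degrees of freedom were infinite, so each gene's spread was replaced by the trend. Folds of low genes are understated by the pseudocount of 1. Alternatives were pseudocounts of 0.1 and 0.5, other filters, TMM-type rescaling computed from recovered reads, quantile normalization, other priors, voom on recovered reads, a replicate block, and each library left out. The fit was tested on simulated data. Replicates were compared for repeat copies (chi-square per degree of freedom 48.5 in control and 150.5 in knockout), and none agreed within sampling noise. All columns were mapped to a sample. Reads and fragments cannot be told apart in the recovered counts. The 9 genes and all lists were chosen with earlier results of these data known. Named are the 9 genes, their paralogs and, of each list, up to 3 called genes with the largest change or, with 0 called, the 2 with the smallest p; Rbbp7, Idh1, Cdkn2c and Id2 were added after their values were seen. Python 3.11.15 was used for descriptions and figures. Some genes that these rules would name are not reported here.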

Additional observations from a re-analysis of the deposited data

How the results depend on the processing

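Called genes over the whole table numbered 391 higher and 101 lower. They numbered 235 higher with a mean of at least 5 RPKM, 52 lower without a trend, 51 and 22 with voom, 1 and 0 after TMM-type rescaling, and 0 and 0 with quantile normalization. Leaving out 1 library gave 27 (without control replicate 2) to 6381 (without knockout replicate 1) higher and 5 to 526 lower, 0 to 5 of the 9 regulators higher and 0 lower, and 1 to 71 pathway genes higher and 0 to 1 lower, against 1 and 1 with all libraries. A lone library in an arm was assumed to vary like the other group. With rescaling as well, a combination chosen after seeing the data, genes called higher numbered 4, 2, 175 and 0 and genes called lower 3, 3, 878 and 0 (leaving out control 1, control 2, knockout 1, knockout 2), with 0 of the 9 regulators called and 0 to 2 pathway genes higher and 0 to 9 lower. Pathway genes higher numbered 2 with a robust prior, 3 without a trend and 0 with quantile normalization. Ube2c, the pathway gene that fell, was not called (0 lower) with rescaling (-0.95), quantile normalization, voom (-0.95), without a trend, and without either control library.

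With the replicate number as a block, 175 genes were called higher and 64 lower, and 0 of the 9 regulators. Deviations of same-numbered libraries correlated at 0.07, and the labels do not say that a number marks a shared animal or day.

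Of 156 values of the 9 genes under an alternative, 17 changed sign. Ezh2 turned from 0.22 to -0.13 with rescaling, -0.0095 with quantile normalization and -0.12 with voom, and Tet3 from 0.23 to -0.017, -0.10 and -0.012. Without 1 library Dnmt1 lay between -0.27 and 0.22, with 0.14 without control replicate 2. With rescaling and without 1 library, Ezh2 was -0.20, -0.058, -0.19 and -0.074 (control 1, control 2, knockout 1, knockout 2), and without control replicate 2 Tet2 was -0.066, Tet3 -0.053 and Asxl1 -0.085. Without knockout replicate 2 Tet3 was -0.084 and Dnmt3b -0.023. The cause was not tested. Dnmt3a, Bmi1 and Kmt2a kept a positive sign in all settings run. Depth limits Bmi1 most, with 278 reads in 1 library.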
